A study of Mus musculus with 7 samples.

Results

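The 10 genes described here encode the Slit ligands (Slit1, Slit2, Slit3), their roundabout receptors (Robo1, Robo2), the secreted cue netrin (Ntn1) and its receptors (Dcc, Neo1, Unc5a, Unc5c). They were chosen by name, with earlier results of these data known. Each is a row of the deposited expression table whose gene symbol equals 1 of the 10 symbols. All 10 were found among 18331 uniquely named genes, all 10 were above 0 in every library compared, and all 10 passed the filter on low values that left 13845 genes.

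RNA was measured in neurons purified by fluorescence-activated cell sorting from dissected arcuate nuclei of mouse embryos at E15.5 (E, embryonic day). The arcuate nucleus, in the ventral hypothalamus, holds the neurons that make proopiomelanocortin (Pomc), the precursor of appetite-suppressing peptides, and those that make neuropeptide Y (Npy), which stimulates feeding. There were 4 libraries labelled Pomc and 3 labelled Npy, all from E15.5 hypothalamus without any treatment given in the labels, and the question put to them was how the transcriptomes of the neuron types differ as they develop. The column of Npy replicate 3 was left out because it is computed from the others: in 15223 of 15223 genes with a value it is the mean of the columns of Npy replicates 1 and 2 after scaling by a whole percent, at most 5 away from 100. The comparison is therefore of 4 Pomc libraries with 2 Npy libraries. The strain, the sex, the reporter behind the sort and the number of embryos per library were looked for but not given in the sources used here. P-values for this comparison therefore capture the spread among these libraries alone, part of which may be technical.

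Slits are large secreted proteins that repel growing axons and migrating neurons by binding roundabout receptors on their surface. In the developing forebrain, Slits made by the hypothalamic midline keep axon tracts away from it. Netrin, secreted by ventral midline cells, attracts axons that carry Dcc or its relative neogenin (Neo1) and repels those that carry an UNC5 receptor, alone or together with Dcc. Receptors set how a neuron responds to these cues, while the ligands it makes act on itself and on cells around it.

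In these libraries the roundabout receptors and 2 of the 3 Slits were at higher levels in every Pomc library than in either Npy library, while the 4 netrin receptors had differences whose 95% intervals included 0. Robo2 passed the threshold (adjusted p of 0.05 over all 13845 genes), with a mean of 164.5 ± 32.8 TPM (SD, n = 4) in Pomc libraries against 43.6 and 11.8 TPM in the Npy libraries. TPM is a level per gene length, scaled so that each library sums to 1000000. Robo1, Slit1 and Slit2 had groups that did not overlap but adjusted p-values of 0.14, 0.14 and 0.61. Slit3, Ntn1, Dcc, Unc5a and Unc5c had overlapping groups, and Neo1 was slightly lower in every Pomc library.

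Sequences around the roundabout genes are shown first, since Robo2 is the member past the threshold and both are linked to the Slit genes by a microRNA. The microRNA miR-218 is made from introns of Slit2 and Slit3 and is known to repress Robo1 and Robo2. In the GRCm38 build its mature form lies at chr5:48223966-48223986 on the plus strand, inside Slit2, and at chr11:35616840-35616860 on the plus strand, inside Slit3. Both copies give the same mature sequence, here from RefSeq with the seed (bases 2 to 8) in capitals.
miR-218-5p: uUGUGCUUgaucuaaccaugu
The reverse complement of that seed, AAGCACA in DNA letters, was searched on the sense strand of the 3′ untranslated regions (3′ UTRs) of the GENCODE M21 annotation. Only 1 protein-coding transcript per gene was searched, that with the longest coding sequence, so matches in other transcripts were not counted. The seed match occurs in the 3′ UTR of 12.4% of 20625 genes, where the median 3′ UTR is 801 bases long. Robo1 has 1 match in 1733 bases, Robo2 has 2 in 3520, Slit2 has 1 in 1270 and Neo1 has 1 in 2587. The other 6 genes have 0 in the transcript searched, with only 192 bases for Slit1 and 365 for Slit3. A match is only a run of letters, and a longer 3′ UTR has more room for one. The roundabout matches are printed with 11 bases on each side and the seed match in capitals. They lie at chr16:73045348-73045354 on the plus strand for Robo1, 986 bases after the stop codon, and at chr16:73895359-73895365 and chr16:73893033-73893039 on the minus strand for Robo2, 461 and 2787 bases after it.
Robo1 match: tttggttttaaAAGCACAatcactaaact
Robo2 nearer match: tatttggtgatAAGCACAaatctctactc
Robo2 farther match: acggcagacccAAGCACAgcttctttcag
The Robo1 match and the nearer Robo2 match are followed by an a, a context known to favour microRNA pairing, and the farther Robo2 match is not. Total RNA libraries of this kind do not measure mature microRNAs. The table's microRNA gene entries were above 0 in few libraries: Mir218-1 was listed at 22.3 TPM in Pomc replicate 3, at 0.748 in Npy replicate 1 and at 0 in the other 4 libraries, and Mir218-2 at 10.5 in Pomc replicate 2, at 35.9 in Npy replicate 1 and at 0 in the other 4.

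The promoters of the 2 roundabout genes are shown because both genes were higher in every Pomc library and the transcription factors of neuronal differentiation commonly bind the E-box CANNTG. RefSeq promoter windows (GRCm38.p6, 250 bases before to 50 after a start) were available for 7 of the 10 genes. CANNTG, which reads the same on both strands, occurs in 72.3% of 32851 such windows of 300 bases. It is in capitals in the windows of Robo1, chr16:72662899-72663198 on the plus strand with 3 matches, and of Robo2, chr16:74411776-74412075 on the minus strand with 1 match.
Robo1 promoter: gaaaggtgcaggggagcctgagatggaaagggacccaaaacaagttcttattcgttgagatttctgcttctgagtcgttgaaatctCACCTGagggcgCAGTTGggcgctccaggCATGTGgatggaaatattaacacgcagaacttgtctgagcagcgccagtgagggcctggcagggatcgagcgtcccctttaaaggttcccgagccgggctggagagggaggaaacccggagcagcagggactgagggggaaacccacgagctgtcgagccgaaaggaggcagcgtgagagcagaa
Robo2 promoter: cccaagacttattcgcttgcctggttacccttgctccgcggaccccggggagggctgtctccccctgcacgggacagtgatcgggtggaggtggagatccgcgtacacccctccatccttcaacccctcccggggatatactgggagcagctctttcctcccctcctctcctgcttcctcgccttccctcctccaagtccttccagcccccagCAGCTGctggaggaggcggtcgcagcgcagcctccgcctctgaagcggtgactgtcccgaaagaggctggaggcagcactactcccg
The Robo1 window lies inside the annotated gene, chr16:72308306-73046095, and so at an internal start. The shown Robo2 window lies at the annotated start of Robo2. Robo2 has 2 more windows, with 1 match each, upstream of its annotated span. Which start these neurons use was not tested. The windows of Slit2, Slit3, Unc5a, Unc5c and Neo1 have 0 matches. The shown Robo1 window is 57% G and C and the Robo2 window 65%, against 68 to 82.7% in the windows of the other 5 genes.

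Robo2, a roundabout receptor for Slits, lies on the minus strand at chr16:73891839-74411825. It read 198, 120, 174 and 167 TPM in Pomc replicates 1 to 4, and 43.6 and 11.8 TPM in Npy replicates 1 and 2. Every Pomc library was above both Npy libraries, with no overlap between the groups. The ratio of the group means was 5.94. On log2(TPM + 1), Robo2 was higher in Pomc neurons by 2.77 ± 0.44 (SE, 95% interval 1.79 to 3.76, limma adjusted p = 0.035). Over all 13845 genes 57 passed this threshold, 0.412%, and Robo2 was the 1 member among them. The Npy libraries themselves differed 3.7 times, and the call was lost when any 1 Pomc library was left out (adjusted p = 0.063 to 0.12) or when Npy replicate 2 was left out (log2 difference 1.87, adjusted p = 0.12).

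Robo1, at chr16:72308306-73046095 on the plus strand, encodes the other roundabout receptor of the forebrain. It read 99.4, 187, 145 and 199.5 TPM in Pomc replicates 1 to 4, and 66.6 and 49.7 TPM in the Npy libraries. Again the groups did not overlap, with Pomc replicate 1 nearest to the Npy values. The ratio of means was 2.71 and the log2 difference 1.39 ± 0.30 (95% interval 0.72 to 2.06), with a limma p of 0.0011 that did not survive adjustment over all genes (adjusted p = 0.14). Robo3, known for midline crossing, was below 1 TPM in every library, and Robo4, the roundabout of blood vessels, at most 1.12 TPM, so Robo1 and Robo2 made up nearly all of the measured roundabout RNA.

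**Figure D1:**
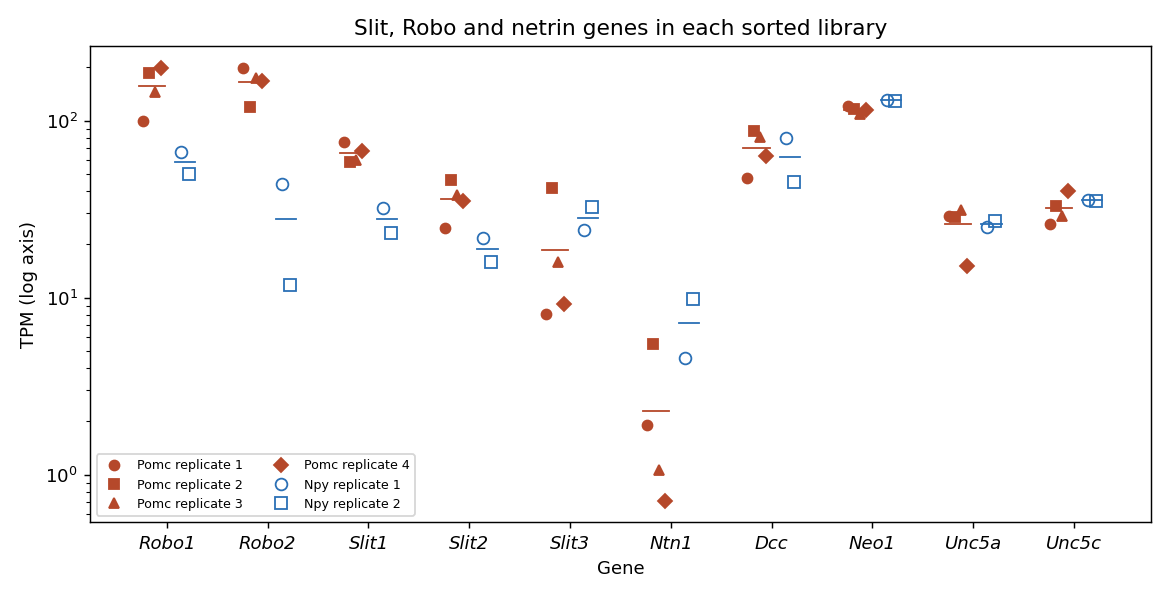
TPM of the 10 genes (log axis) in each of the 4 Pomc libraries (filled red) and 2 Npy libraries (open blue), with a line at each group's mean and the same marker shape for the same replicate number. Robo1, Robo2, Slit1 and Slit2 have every red point above both blue ones, while Ntn1 is the lowest of the 10 genes in every library.

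Together, Robo1 and Robo2 summed to 297, 306, 318 and 366.5 TPM in the Pomc libraries and to 110.2 and 61.4 in the Npy libraries. The sum varied less between Pomc libraries than either gene did: the highest over the lowest Pomc value was 2.01 for Robo1 and 1.66 for Robo2, and Pomc replicate 1, with the lowest Robo1, had the highest Robo2. The log2 ratio of Robo2 to Robo1 within a library was 0.99, -0.64, 0.26 and -0.26 in the Pomc libraries and -0.60 and -1.99 in the Npy libraries. Robo2 was thus the higher of the pair in 2 of 4 Pomc libraries and in neither Npy library. The mean ratio was 1.38 higher in Pomc libraries on the log2 scale, and the groups overlapped. The exact two-sided permutation p was 0.2, and 0.6 adjusted over 3 ratios. Its smallest possible value is 0.0667, so it could not fall below 0.05. The difference of the mean ratios was 0.69 without Npy replicate 2 and 2.08 without Npy replicate 1.

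Slit1, at chr19:41600257-41743665 on the minus strand, encodes the Slit most restricted to the nervous system. It read 75.6, 58.7, 59.8 and 67 TPM in the Pomc libraries and 32.3 and 23.3 in the Npy libraries. The groups were well apart and the Pomc libraries close together (mean 65.3 ± 7.81 TPM, SD, n = 4). The log2 difference was 1.21 ± 0.26 (95% interval 0.63 to 1.80, limma adjusted p = 0.14). Slit2, at chr5:47983138-48307733 on the plus strand, encodes a midline repellent made in many tissues. Its levels were 24.7, 46.3, 38.3 and 35.1 TPM in the Pomc libraries and 21.6 and 15.9 in the Npy libraries. Here the lowest Pomc value was only slightly above the higher Npy value, and the log2 difference of 0.89 ± 0.36 had an adjusted p of 0.61.

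Slit3, at chr11:35121224-35708507 on the plus strand, encodes the Slit that is also made by many non-neural tissues. It read 8.06, 41.5, 16 and 9.23 TPM in the Pomc libraries and 24 and 32.5 in the Npy libraries. Pomc replicate 2 was above both Npy libraries and the other 3 were below both. Slit3 varied 5.1 times among Pomc libraries, against 1.3 times for Slit1, and its log2 difference of -0.85 ± 0.63 had an interval from -2.26 to 0.57 (adjusted p = 0.83). The 3 Slits summed to 108 to 146.5 TPM in the Pomc libraries and to 77.9 and 71.7 in the Npy libraries. Slit1 was the highest of the 3 in every Pomc library, and Slit1 and Slit3 changed places between the Npy libraries.

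Ntn1, at chr11:68209364-68400823 on the minus strand, encodes netrin itself. It read 1.91, 5.49, 1.07 and 0.714 TPM in the Pomc libraries and 4.55 and 9.83 in the Npy libraries. Only Pomc replicate 2 reached into the Npy range, which is the same library that had the highest Slit3. The log2 difference was -1.44 ± 0.76 (95% interval -3.14 to 0.26, adjusted p = 0.77). At these levels the added 1 TPM understates a fold, and the ratio of means was 0.319, Pomc over Npy. In every library Ntn1 was below each of its 4 receptors.

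Dcc, the netrin receptor of attraction, at chr18:71253634-72351069 on the minus strand, read 47.5, 87.5, 81.1 and 63.2 TPM in the Pomc libraries. The Npy libraries, at 79.5 and 45.3 TPM, spanned nearly the same range. The log2 difference was 0.18 ± 0.32, and its interval from -0.55 to 0.91 leaves room for differences of either sign. Neo1, at chr9:58874687-59036441 on the minus strand, encodes neogenin, a receptor of netrin and of repulsive guidance molecules. It was the steadiest of the 10 genes, with 121, 116, 109 and 115 TPM in the Pomc libraries and 132 and 128.5 in the Npy libraries. Every Pomc library was below both Npy libraries, by little: the log2 difference was -0.17 ± 0.17 (95% interval -0.56 to 0.22, adjusted p = 0.87).

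Unc5a and Unc5c encode receptors of netrin repulsion. Unc5a, at chr13:54949411-55006018 on the plus strand, read 29, 28.6, 31.4 and 15 TPM in the Pomc libraries and 25 and 27.2 in the Npy libraries. Pomc replicate 4 stood below the rest, and the group means were nearly equal (26.0 and 26.1 TPM). Unc5c, at chr3:141465216-141834924 on the plus strand, read 26.1, 32.8, 29.1 and 39.8 TPM in the Pomc libraries and 35.8 and 35.4 in the Npy libraries, which lay inside the Pomc range. Neither was past the threshold (log2 differences -0.05 ± 0.39 and -0.17 ± 0.30, adjusted p = 0.99 and 0.93). The intervals, -0.94 to 0.83 for Unc5a and -0.85 to 0.51 for Unc5c, do not show equal levels. The log2 ratios of Dcc to Neo1 and of Unc5a to Unc5c differed between the groups by 0.35 and 0.11. Both are less than the SD of the ratio over the Pomc libraries (0.435 and 0.702). The exact permutation p was 0.467 and 0.933, and 0.7 and 0.933 adjusted over 3 ratios.

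**Figure D2:**
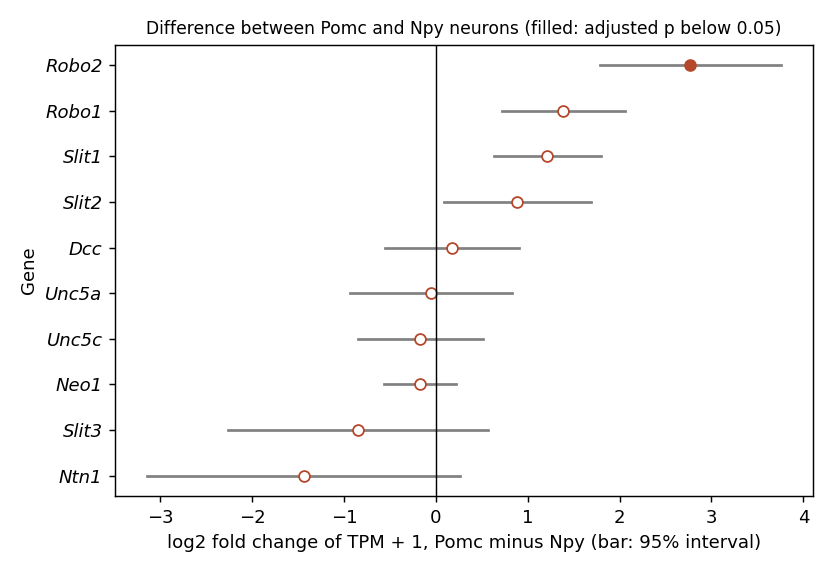
Log2 difference of TPM + 1, Pomc minus Npy, for each of the 10 genes, with bars for the 95% interval of the limma fit and a filled point where the adjusted p was below 0.05. The intervals of Robo2, Robo1, Slit1 and Slit2 lie above 0, and Robo2 at 2.77 has the filled point.

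Counted over the 10 genes, 1 passed the adjusted threshold, in the direction of Pomc. At an unadjusted limma p below 0.05 there were 4 of 10, Robo1, Robo2, Slit1 and Slit2, all higher in Pomc, where 7.36% of all genes tested were below it in either direction. Groups did not overlap for 5 of 10, against 15.9% of all genes, and for 4 of 10 with Pomc higher, against 8.05%. The genes were chosen with earlier results of these data known, so these counts cannot serve as a test of the set. The 10 genes share no common direction, since 5 log2 differences were above 0 and 5 below, with a median of 0.06 beside 0.02 for all genes. In bulk libraries such as these, fewer cells with a transcript and less of it in each cell cannot be told apart.

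The order of levels differed between the groups. By mean TPM in Pomc libraries it ran Robo2 (164.5), Robo1 (158), Neo1 (115), Dcc (69.8), Slit1 (65.3), Slit2 (36.1), Unc5c (31.9), Unc5a (26.0), Slit3 (18.7) and Ntn1 (2.29). Of these neighbours, the ranges over libraries were apart for Neo1 above Dcc, Slit1 above Slit2 and Slit3 above Ntn1, and overlapped for the other 6 pairs. In the Npy libraries the order began with Neo1 (130.1), Dcc (62.4), Robo1 (58.2) and Unc5c (35.6), and Robo2 was the seventh of the 10 genes at 27.7 TPM. There the ranges overlapped between Dcc and Robo1 and between neighbours in the run Slit3, Slit1, Robo2, Unc5a, and were apart for the other 5 pairs. Ranked among all genes of a library, Robo2 lay between percentile 51.6, in an Npy library, and percentile 95.2, in a Pomc library, while Neo1 stayed between 89.6 and 91.8.

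**Figure D3:**
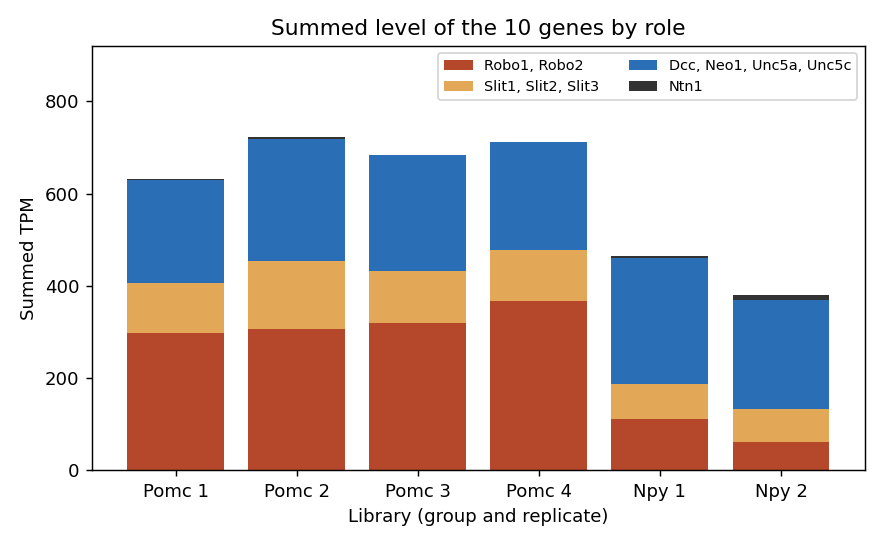
Summed TPM of the 10 genes in each library, stacked by role: roundabout receptors, Slit ligands, netrin receptors and netrin. The roundabout block is 42.4 to 51.5% of the stack in the 4 Pomc libraries and 16.2 to 23.7% in the 2 Npy libraries, while the netrin receptor block is near the same height in all 6.

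Summed by role, the netrin receptors reached 223 to 265 TPM in the Pomc libraries and 272 and 236 in the Npy libraries. They made up 32.8 to 36.7% of the summed level of the 10 genes in Pomc libraries and 58.5 to 62.3% in Npy libraries. The roundabout receptors made up 42.4 to 51.5% and 16.2 to 23.7%. Slits held a similar share in both, 15.6 to 20.3% and 16.8 to 18.9%. Among these 10 genes, then, Robo1 and Robo2 together exceeded the 4 netrin receptors in 4 of 4 Pomc libraries. The reverse held in 2 of 2 Npy libraries. In Pomc replicate 2 the sums were 306 against 265 TPM. Other netrin receptors, such as Unc5b, are not in these sums, so the comparison holds only for the receptors chosen.

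The genes whose profile over the 6 libraries was most like that of Robo2 were Ntsr1, Fstl5, Nr0b1, Sema3a and Rnf128. Likeness was the root mean square difference of log2(TPM + 1), each gene centred on its own mean, among 11199 genes with a mean of at least 5 TPM. It was 0.29 for Ntsr1, a neurotensin receptor, 0.30 for Fstl5 and Nr0b1, 0.32 for Sema3a, a secreted repellent of axons, and 0.33 for Rnf128, where the median gene was at 1.46. Nr0b1, which encodes a nuclear receptor of the ventromedial hypothalamus and steroid-making organs, read 39, 15.3, 20 and 30.9 TPM in the Pomc libraries and 8.44 and 1.18 in the Npy libraries. Sema3a read 12.8, 6.11, 10.3 and 17.3 TPM and 3.39 and 0 TPM. Of the other 9 members Slit1 came nearest, at rank 216 (0.84), followed by Robo1 at rank 308 (0.91).

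The other genes of these pathways were taken from 6 lists holding 97 genes, of which 95 were in the table and 91 were tested. Of these 91, 1 was called higher in Pomc, 0 lower, and 90 were not called, where 0.412% of all tested genes were called. At an unadjusted limma p below 0.05, 7 were higher and 6 lower, 13 of 91 beside 7.36% of all genes. Groups did not overlap for 15 higher and 12 lower, 27 of 91 beside 15.9% of all genes. The median log2 difference was 0.10, against 0.02 for all genes. These lists too were chosen with earlier results of these data known, so their counts only describe them.

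Nell1 was the called gene. It encodes a secreted glycoprotein whose relative Nell2 is a ligand of Robo3. It read 79.3, 89.1, 81.6 and 79.6 TPM in the Pomc libraries and 25 and 17 in the Npy libraries. The Pomc libraries were close together and far above both Npy libraries, with a log2 difference of 1.94 ± 0.25 (adjusted p = 0.013) and a ratio of means of 3.92. Without Npy replicate 2, or without Pomc replicate 1, 2 or 3, the adjusted p was 0.12, 0.051, 0.051 and 0.068. Nell2 itself read 407, 264, 297 and 470 TPM against 157 and 166, with every Pomc library higher and an adjusted p of 0.16. On the same list of FLRT and other extracellular partners, 1 of 15 tested genes was called and 14 were not. Lrig1, a leucine-rich repeat protein that restrains growth factor receptors, read 14.6, 11.5, 11 and 9.35 TPM against 2.68 and 2.57 (adjusted p = 0.40). Flrt3, a membrane protein that binds UNC5 receptors and Robo1, was lower in every Pomc library, 4.94 to 13.5 TPM against 33.6 and 15.4 (adjusted p = 0.56). Plxna1, a plexin with the highest mean on the list, had a log2 difference of 0.15 (adjusted p = 0.91).

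The list of netrin relatives and other netrin receptors had 0 of 12 tested genes called. Of these 12, 4 were lower in Pomc at an unadjusted limma p below 0.05: Unc5b, Dscaml1, Ntng1 and Mcam. Over all genes 454 of 13845 were lower at that p. Unc5b, an UNC5 receptor of axons and blood vessels, read 3.67, 1.93, 2.56 and 0.0684 TPM in the Pomc libraries and 19.5 and 24.6 in the Npy libraries. Its groups were far apart, with a log2 difference of -3.09 ± 0.74 but an adjusted p of 0.21. Dscaml1, a relative of the netrin receptor Dscam, read 13.9 to 29.8 TPM against 57.5 and 48.9 (adjusted p = 0.27). Ntng1, a membrane-anchored netrin relative, read 18.3 to 28.8 TPM against 54.9 and 35.5 (adjusted p = 0.55). Mcam, a cell adhesion molecule of vessels, read 0 to 2.2 TPM against 4.04 and 9.29 (adjusted p = 0.56). Ntng2, the other membrane-anchored netrin, varied from 0.868 to 29.2 TPM among the Pomc libraries, and Rgmb, a ligand of neogenin, had a log2 difference of 0.62 (adjusted p = 0.69).

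**Figure D4:**
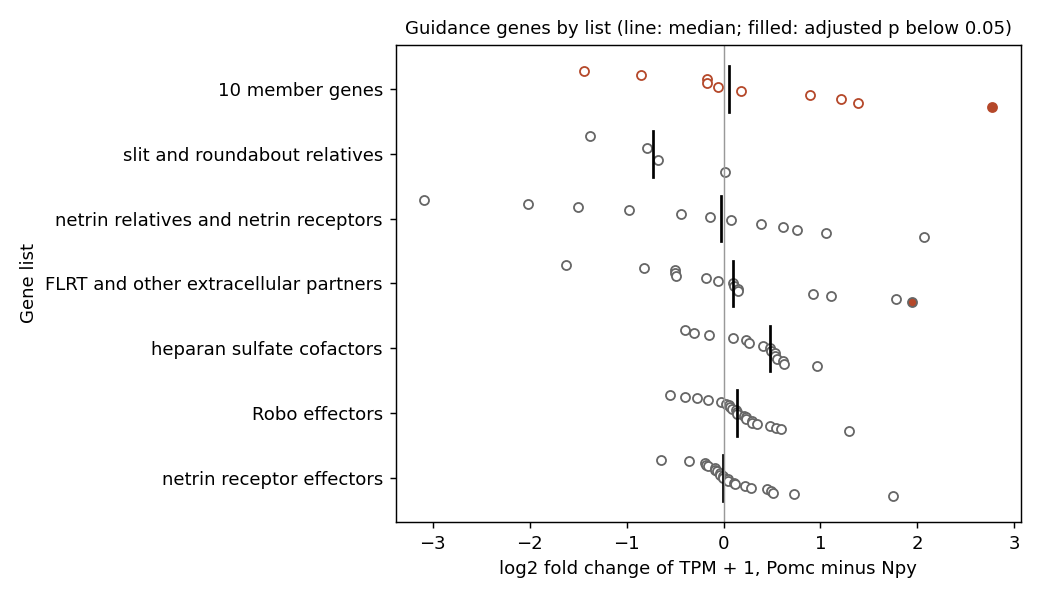
Log2 difference of TPM + 1, Pomc minus Npy, for each tested gene of the 10 members and of the 6 pathway lists, 1 point per gene, with a line at the median of each list and filled points where the adjusted p was below 0.05. The filled points are Robo2 among the members and Nell1 among the extracellular partners, and the medians lie between -0.73 and 0.48.

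Among 22 tested effectors of roundabout receptors 0 were called, with a median log2 difference of 0.14. Srgap3, a GTPase-activating protein recruited by roundabout receptors, read 257, 417, 374 and 332 TPM in the Pomc libraries and 227 and 222 in the Npy libraries, every Pomc library higher (log2 difference 0.60, adjusted p = 0.55). Pak3, a kinase activated by Rac and Cdc42, read 140, 174, 150 and 168 TPM against 104.8 and 38.4 (log2 difference 1.29, adjusted p = 0.28). Without Npy replicate 1 the log2 difference of Pak3 was 2.01 and past the threshold (adjusted p = 0.014), and without Npy replicate 2 it was 0.58 (adjusted p = 0.999). Ndfip1, an adaptor that sends Robo1 for degradation, was the most abundant of the list and nearly equal between groups (log2 difference -0.03). Among 23 tested effectors of netrin receptors 0 were called, with a median of -0.002. The actin-binding protein Ablim1 read 62.2, 23.3, 32.4 and 44 TPM against 16.4 and 6.75 (adjusted p = 0.34). Trim67, a ubiquitin ligase that binds Dcc, read 75.2 to 92 TPM against 58.3 and 58.9 (adjusted p = 0.65). Myo10, a filopodial motor that carries Dcc, and Maged1, an adaptor that binds Unc5a, had log2 differences of 0.72 and -0.09 (adjusted p = 0.79 and 0.94).

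Slits need heparan sulfate chains to bind roundabout receptors, and netrin binds them too. Among 15 tested genes of heparan sulfate proteins and enzymes 0 were called. Of the 15 log2 differences 12 were above 0, with a median of 0.48, beside 7097 of 13845 above 0 and a median of 0.02 for all genes. Gpc2, a glypican of growing axons, was lower in every Pomc library, 151 to 173 TPM against 203 and 216 (log2 difference -0.40, adjusted p = 0.63). The most abundant, the neuronal syndecan Sdc3, had a log2 difference of 0.10 (adjusted p = 0.94), and the sulfotransferase Hs6st2 and the syndecan Sdc1 had 0.62 and 0.61 (adjusted p = 0.85 and 0.86). The slit and roundabout relatives, in which the Slitrk genes encode synaptic membrane proteins with Slit-like repeats, had 0 of 4 tested genes called. Slitrk2 and Slitrk5 were lower in every Pomc library (log2 differences -1.38 and -0.79, adjusted p = 0.74 and 0.69), and Slitrk1 differed by 0.01.

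Several other measures moved with the groups. Pomc itself read 352 to 770 TPM in Pomc libraries and 24 and 59.4 in Npy libraries, and Npy 2.11 to 152 and 728 and 513 TPM, as the labels say. Agrp, listed with them as a marker of the sort, overlapped, at 0 to 6.82 TPM in Pomc libraries and 5.53 and 1.75 in Npy libraries. For the marker counts below, 1114 of all 13845 tested genes were higher in every Pomc library and 1088 were lower. The summed level of 7 markers of the neighbouring ventromedial nucleus was 342 to 502 TPM in Pomc libraries and 30.2 and 22.6 in Npy libraries. Of these, 5 of 7 were higher in every Pomc library. Nr5a1, the defining factor of that nucleus, read 118 to 167 TPM in Pomc libraries and 5.25 and 2.81 TPM in Npy libraries. The summed level of 6 oligodendrocyte lineage markers was 0.444 to 2.64 TPM in Pomc libraries and 228 and 207 in Npy libraries, with 6 of 6 lower in every Pomc library and Olig2 and Cspg4 at 0 in all Pomc libraries. Fibroblast markers, which share Pdgfra with that list, summed to 2.31 to 10.7 and 85.1 and 82.7 TPM. Of the 7, only Pdgfra itself was lower in every Pomc library, with Dcn and Lum at 0 in all 6 libraries. The floor plate is a tissue that makes both netrin and Slits. Its markers summed to 55.0 to 69.1 TPM in Pomc libraries and 124 and 133 in Npy libraries. Of the 5 measured, 2 were lower in every Pomc library, Spon1 among them, and 1 was higher. The higher one was Shh (14.9 to 30.4 TPM against 4.57 and 10.4). Foxa1 was at 0 in both Npy libraries and Lmx1a at 0 in all libraries. Among 12 pan-neuronal markers the sum was 5969 to 7378 TPM in Pomc libraries and 5140 and 4535 in Npy libraries. Only 3 of the 12 were higher in every Pomc library and 0 were lower, so the rest overlapped. The part of these cell types in the differences of Robo1, Robo2, Slit1, Slit2 or Nell1, or in the Npy levels of Ntn1, Slit3 and Unc5b, was not tested.

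Sums of radial glia and tanycyte markers (302 to 670 TPM against 660 and 437), of endothelial markers (1.31 to 11.7 against 5.92 and 12.9), of microglial markers (0 to 43 against 3.79 and 9.97) and of pituitary markers (0 to 9.3 against 1.76 and 2.76) overlapped between the groups. In the radial glia list 0 of 12 markers were higher in every Pomc library and 4 were lower, with Pax6 at 0 in all Pomc libraries. Over all 13845 tested genes 1114 were higher in this way and 1088 lower. The 43 TPM of microglial markers belongs to Pomc replicate 4, the library with the low Unc5a. The microglial markers C1qa, Tyrobp and Trem2 were at 0 in all Pomc libraries, that one included. Whether this sum bears on Unc5a was not tested.

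Length of the genes also ran with the values. Of the 10 members, 9 span at least 100 kb of genome, from 143 kb for Slit1 to 1097 kb for Dcc, and Unc5a spans 56.6 kb. Among 2022 tested genes of at least 100 kb the median log2 difference was 0.12, with 12 called higher and 0 lower in Pomc. Among 11102 shorter genes it was -0.002, with 27 called higher and 17 lower, and 0.412% of all tested genes were called. Long genes were also lower in Npy replicate 2 than in Npy replicate 1, by a median log2 difference of -0.45, against -0.09 for shorter genes. Among the 493 genes of at least 300 kb that median was -0.71, and 7 were called higher and 0 lower in Pomc. Of the 10 members 7 were lower in Npy replicate 2. The part of gene length in the differences was not tested. The 6 members of at least 300 kb had log2 differences of 0.18 (Dcc), 1.39 (Robo1), -0.85 (Slit3), 2.77 (Robo2), -0.17 (Unc5c) and 0.89 (Slit2), from the longest to the shortest. Annotated genes on the other strand overlap Unc5c, Slit2, Neo1 and the end of Unc5a, where it is Hk3 (at most 2.55 TPM), and whether the authors counted by strand was not given in the sources used here.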

How the data were processed

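RNA was sequenced from sorted E15.5 Pomc and Npy neurons. Per the labels, libraries were made from 1 ng of total RNA with a stranded total RNA kit. The authors deposited 1 table with a value per gene symbol (18335 rows) and sample. The deposited values were taken as TPM, since 6 of the 7 columns sum to 1000000. The submitters' processing notes name HISAT2, mm10 and edgeR 3.8, without a role. Not given in the sources used here were the counting tool, annotation, use of strand and how gene length was defined. TPM keeps no read depth, so the precision of low values is unknown. Genes above 0 ranged from 12493 (Pomc replicate 4) to 14933 (Npy replicate 1).

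The comparison of 4 Pomc with 2 Npy libraries (replicates 1 and 2) used limma 3.58.1 with a trended prior in R 4.3.3 on log2(TPM + 1). Genes needed at least 1 TPM in at least 2 of the 6 libraries. P-values were two-sided and adjusted by Benjamini-Hochberg over all 13845 genes tested, with a threshold of 0.05. The 4 rows with a repeated date-like symbol were left out. A fold on this scale understates changes of low genes. Ratios of receptors were compared with an exact permutation test. The fit was tested on simulated data, with independent noise of the same size in every library for a given gene. That setting does not copy the differences between the 2 Npy libraries.

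The 10 genes and the lists were chosen with earlier results of these data known. Named pathway genes are those past the threshold, the 2 with the largest difference (mean of at least 5 TPM) and the 1 with the highest mean on each list. Genes named at an unadjusted p below 0.05 (Ntng1, Dscaml1, Mcam, Flrt3, Nell2, Gpc2, Trim67), Robo3, Robo4 and Nr5a1 were added after their values were seen. For Robo2, the 5 nearest profiles are named. Gene positions are from GENCODE M21 (GRCm38, which mm10 names too), and sequences of promoters and miR-218 from RefSeq. Alternatives were the pseudocount (0.1 or 5 TPM), the filter (none, or 5 TPM in at least 3 libraries), 2 rescalings, 1 prior variance for all genes, a replicate block, all 7 columns, and leaving out each library.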

Additional observations from a re-analysis of the deposited data

Results flagged for a closer look

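Unc5a in Pomc replicate 4, at 15.01 TPM, stood apart from the other 3 Pomc libraries, which read 28.6 to 31.4 TPM. Its gap to the nearest of them was 0.832 of the whole range of the 4 libraries. This was the 1 gene singled out by such a gap among 28 genes screened. Chance alone gives about 1 in 20, so 1 among 28 is no more than chance would give. Without that library the log2 difference of Unc5a was 0.18, in place of -0.05.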

How the results depend on the processing

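Over 15 alternative fits the log2 difference of Robo2 stayed above 0, from 1.87 to 3.67, with adjusted p from 0.0030 to 0.17. It stayed past the threshold in 6 of them. The number of members called, 1 in the comparison as reported, was 0 with a pseudocount of 0.1, without a filter and with 1 prior variance for all genes (Robo2 adjusted p = 0.052, 0.12 and 0.17). With all 7 columns, the derived one included, it was 3 (Robo1, Robo2 and Slit1), which narrows the spread by construction. Leaving out 1 library gave 0 to 1, with Robo2 called only without Npy replicate 1, where the lone Npy library is assumed to vary like the Pomc group. Pathway genes called numbered 0 with 1 prior variance, 4 with all 7 columns (Unc5b among them) and 0 to 2 without 1 library. All genes called, 57 as reported, numbered 37 with a pseudocount of 0.1, 33 without a filter, 205 with all 7 columns and 22 to 69 without 1 library. The split of higher to lower calls was 40 to 17 as reported, 38 to 5 with the stricter filter, 21 to 21 with 1 prior variance and 39 to 25 with a pseudocount of 5.

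The labels give replicate numbers without saying whether same-numbered libraries belong together. Deviations of same-numbered Pomc and Npy libraries correlated across genes at -0.044 and -0.033. The deviations of the 2 Npy libraries mirror each other, so these values cannot show whether the numbers mark a pairing. With a replicate block 0 members, 0 pathway genes and 12 genes in all were called. Robo2 had an adjusted p of 0.067, and Unc5a and Maged1 turned to 0.14 and 0.011. In that fit a Pomc library without a same-numbered Npy library adds nothing to the group difference or its spread. The fit thus compares only the same-numbered libraries, and whether the lost calls and changed signs come from pairing was not tested. No other member changed sign with the block.

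Slit2, Slit3, Unc5c and Neo1 kept their direction and stayed short of the threshold in 15 of 15 fits, Ntn1 in the 14 fits that tested it, and Robo1 and Slit1 kept their direction in 15 of 15. Small differences changed sign. Slitrk1 was -0.029 with median-of-ratios scaling, -0.042 when scaled without short RNA genes and -0.001 with all 7 columns. Without 1 library, log2 differences ranged from -0.22 to 0.58 for Dcc, -0.16 to 0.18 for Unc5a, -0.16 to 0.19 for Slitrk1, -0.11 to 0.42 for Plxna1, -0.20 to 1.42 for Sdc1, -0.04 to 0.19 for Sdc3, -0.14 to 0.11 for Ndfip1 and -0.29 to 0.11 for Maged1. Without changing sign, others moved by over 1.5 times in the same way: Slit3 (-1.31 to -0.57), Ntn1 (-1.92 to -0.96), Unc5c (-0.28 to -0.08), Hs6st2 (0.19 to 1.05), Ntng2 (0.86 to 3.28), Slitrk2 (-1.86 to -0.90), Pak3 (0.58 to 2.01, called without Npy replicate 1) and the ratio of Robo2 to Robo1 (0.69 to 2.08). The ratio of Dcc to Neo1 ranged from -0.03 to 0.73 and that of Unc5a to Unc5c from -0.042 to 0.46 in the same way. Rescaling moved the median of all genes by less than 0.1. With 2 Npy libraries and no read depth, precision at low levels such as Ntn1 is limited.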
